A study of Mus musculus with 10 samples.

Results

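The Bcl2 family of apoptosis regulators was followed through 10 genes in mouse fibroblasts and in cells reprogrammed from them. The members were the pro-survival genes Bcl2, Bcl2l1 (Bcl-xL), Bcl2l2 (Bcl-w) and Mcl1, the effectors Bax and Bak1, and the BH3-only genes Bid, Bcl2l11 (Bim), Bbc3 (Puma) and Pmaip1 (Noxa). They were chosen by name and not by a measured value, though earlier results of these data were known. All 10 were found among the 18901 genes listed, and all 10 were among the 17075 genes that reached 10 or more in at least 2 libraries. Polyadenylated RNA was sequenced from 5 lines of a cross of MF1 and 129 mice, with 2 libraries per line. Oct4-GFP mouse embryonic fibroblasts (MEF), in which a GFP reporter marks activity of Oct4, were kept in DMEM with 10% FCS and sampled at passages 2 and 4. The other 4 lines were sampled at passages 5 and 25 in KSR medium with LIF, a cytokine that maintains mouse pluripotent cells. They were a pre-iPS line, 1 control iPS clone and clones 1 and 2 of the "Netrin-1 derived" iPS cells, and were obtained from Oct4-GFP MEF with retroviruses carrying Oct4, Sox2, Klf4 and c-Myc. Netrin-1 is a secreted ligand of dependence receptors such as Dcc, and the recombinant protein was present while the derived clones were made. Pre-iPS cells are partly reprogrammed cells in which the pluripotency genes are not fully active. Each reprogrammed line is 1 clone and its 2 passages are repeated samples of it. A p-value here therefore measures the spread between these libraries, and the clone and its condition cannot be told apart.

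The family controls the mitochondrial route to apoptosis. Pro-survival members hold Bax and Bak1 in check, BH3-only members relieve that restraint or activate the effectors directly, and activated Bax and Bak1 open the outer mitochondrial membrane so that cytochrome c leaves and caspases are activated. Pluripotent cells are known for a low threshold to this route, and cell death is known as a barrier to reprogramming. Much of the family's control is exerted on protein (cleavage of Bid, rapid turnover of Mcl1, movement of Bax to mitochondria), which RNA does not show.

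Values are pseudo-counts, that is, read counts adjusted by the authors for library size, and differences are on the log2(value + 1) scale with their standard error (SE) from limma. A gene is called where its Benjamini-Hochberg adjusted p was under 0.05 and its log2 difference was at least 1 in size. A gene is said to have passed the test where its adjusted p alone was under 0.05. The 8 pre-iPS and iPS libraries held 38110410 to 46357031 reads on genes. The deposited values did not have equal totals. They summed to 55886953 to 56073322 in the MEF libraries and to 39745507 to 41892877 in the pre-iPS and iPS libraries. The part of this gap in the differences between MEF and the other lines was not tested, and those differences depend on the scaling, as given below. The 2 MEF libraries differed less from each other (median absolute log2 difference of 0.062 over all genes tested) than the libraries of the other lines did (0.190 to 0.232). The lines matched their labels by their markers. All 11 fibroblast markers were called higher in MEF than in the iPS lines, and their summed level in any reprogrammed library was at most 1.27% of the MEF mean. All 9 naive pluripotency markers were called lower in MEF, and their summed level in pre-iPS cells was 32.3% of the iPS mean. Of 11 macrophage markers, 10 were called higher in MEF, with a sum of 15574.5 to 15735.7 in MEF and of 691 to 2030 in the other libraries. The defining genes Tyrobp and C1qb were at 525 or more in MEF, and in the other libraries at most at 1.05 and 0.964. They thus entered the test only through MEF, where they are high, so a call of either carries no weight. The same holds for any other marker that is under 10 outside the group where it is high. The counts of called markers are given with that limit. These fibroblast and macrophage levels move with every difference between MEF and the other lines below, and their part in those differences was not tested.

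The members are spread over several chromosomes of the GRCm38 (mm10) assembly, here with GENCODE positions. The pro-survival genes lie on chromosome 1 (Bcl2, 106538178 to 106714274, minus strand), chromosome 2 (Bcl2l1, 152780668 to 152831728, minus strand), chromosome 14 (Bcl2l2, 54883377 to 54888234, plus strand) and chromosome 3 (Mcl1, 95658788 to 95663176, plus strand). The effectors lie on chromosome 7 (Bax, 45461697 to 45466898, minus strand) and chromosome 17 (Bak1, 27019810 to 27029009, minus strand). Of the BH3-only genes, Bid lies on chromosome 6 (120891930 to 120916853, minus strand), Bcl2l11 on chromosome 2 (128126038 to 128162547, plus strand) and Bbc3 on chromosome 7 (16308393 to 16318205, plus strand). Reads were counted over whole genes, so splice forms such as the long and short products of Bcl2l1 are not separated. On the opposite strand Bcl2 overlaps the antisense gene D630008O14Rik over 33103 bases, Bak1 overlaps Ggnbp1 over 9200 and Bid overlaps Bcl2l13 over 913. Bcl2l2 shares 4794 bases with the same-strand gene model Gm20521, and Bax shares 915 with Gm45808. The library kit does not mark strand, so reads in these overlaps could have come from either gene.

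The 250 bases before the start site are shown for 3 members because the results below turn on them: Bcl2 and Mcl1 were called in opposite directions between MEF and iPS cells, and Mcl1 and Bcl2l11 had nearly the same pattern over the reprogrammed libraries. The sequences are from RefSeq (GRCm38.p6), which gave windows for 9 of the 10 members, and are written 5′ to 3′ on the gene's strand. Capitals mark matches on either strand to the GC box (GGGCGG), the CCAAT box (CCAAT) or an Ets motif (CCGGAAG). The windows are chr1:106714291-106714540 (minus strand), chr3:95658471-95658720 (plus strand) and chr2:128125788-128126037 (plus strand, the first of the start sites given for Bcl2l11).
Bcl2: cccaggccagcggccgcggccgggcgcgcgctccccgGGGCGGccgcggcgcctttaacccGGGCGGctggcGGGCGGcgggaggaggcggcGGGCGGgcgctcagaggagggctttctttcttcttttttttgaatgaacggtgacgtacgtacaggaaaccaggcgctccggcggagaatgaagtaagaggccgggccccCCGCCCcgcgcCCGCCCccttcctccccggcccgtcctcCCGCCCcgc
Mcl1: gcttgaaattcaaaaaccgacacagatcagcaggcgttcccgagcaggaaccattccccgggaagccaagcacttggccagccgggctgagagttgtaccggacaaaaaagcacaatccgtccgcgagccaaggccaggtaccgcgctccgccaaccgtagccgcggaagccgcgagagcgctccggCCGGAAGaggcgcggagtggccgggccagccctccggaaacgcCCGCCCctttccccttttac
Bcl2l11: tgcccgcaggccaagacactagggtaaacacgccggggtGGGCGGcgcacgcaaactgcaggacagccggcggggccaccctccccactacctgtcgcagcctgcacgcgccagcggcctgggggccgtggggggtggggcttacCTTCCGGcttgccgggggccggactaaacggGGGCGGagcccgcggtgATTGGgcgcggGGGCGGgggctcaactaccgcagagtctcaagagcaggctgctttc
The 3 windows were rich in G and C, at 74.8% in Bcl2, 64.4% in Mcl1 and 72% in Bcl2l11, against a median of 52.4% over 32851 promoter windows of this length. They held 36, 26 and 24 CpG dinucleotides, against a median of 6. Bcl2 had 7 GC boxes, Bcl2l11 had 3 and Mcl1 had 1, and 32.7% of all windows held at least 1. Mcl1 and Bcl2l11 each had 1 Ets motif, which 6.91% of all windows held, and Bcl2l11 also had 1 CCAAT box, which 33.8% held. The window of the second start site given for Bcl2l11, not shown, held 0 Ets motifs, 2 GC boxes and 2 CCAAT boxes. Neither the E box CACGTG (6.02% of all windows), the TATA box TATAAA (12.4%), the Stat motif TTCNNNGAA (7.02%) nor the cAMP response element TGACGTCA (1.55%) was found in the 3 windows shown. A match is a run of letters only.

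To set the members beside each other, pseudo-counts were divided by the length of each gene's merged exons in kb. In the 6 iPS libraries Bax and Mcl1 had the highest levels per kb, at 5125 ± 336 (SD, n = 6) and 5044 ± 1016. With this length these levels did not differ beyond their spread. Per kb of the longest transcript Bax was at 7343 ± 482 and Mcl1 at 5044 ± 1016, outside their spread of each other. Per kb of merged exons Bak1 followed at 1672 ± 166, then Bbc3 at 706 ± 51.8 and Bid at 677 ± 49.9, which lay within their spread of each other. Pmaip1 (531 ± 35.6) and Bcl2l1 (519 ± 65.2) were also within their spread, and Bcl2l2 (388 ± 40.7) and Bcl2l11 (290 ± 69.9) came next. Bcl2 itself was by far the lowest at 21.9 ± 6.80 per kb. MEF had the same gene at each end of the order, with Bax at 5093 ± 45.8 (SD, n = 2) and Bcl2 at 51.3 ± 2.36 per kb. Bcl2l2 had rank 4 of 10 in MEF, at 844 ± 10.9 per kb, and rank 8 in the iPS lines.

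The make-up of the pro-survival group differed between the lines. Mcl1 made up 84.1% ± 2.42 (SD, n = 6) of the summed level per kb of the 4 pro-survival genes in the iPS libraries, with a range of 80.3% to 87.8%. It made up 73.5% ± 0.634 (n = 2) in pre-iPS cells and 58.8% ± 0.431 (n = 2) in MEF, so the ranges of the 3 kinds of cell did not overlap. Bcl2l1 and Bcl2l2 filled most of the rest, at 19.7% and 20.3% in MEF, 8.82% and 6.66% in the iPS libraries and 16.2% and 9.58% in pre-iPS cells. The order of the lines was the same with the longest transcript as the length, which gave Mcl1 77.8%, 64.2% and 49.3% in iPS, pre-iPS and MEF libraries. Among the BH3-only genes Bid made up 30.8% ± 2.35 of the summed level per kb in iPS libraries and 32.4% ± 0.818 in MEF, but 45.4% ± 0.869 in pre-iPS cells. Bcl2l11 made up 13.1% ± 2.36 in iPS libraries, 15.5% ± 0.260 in MEF and 7.23% ± 0.407 in pre-iPS cells.

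**Figure D1:**
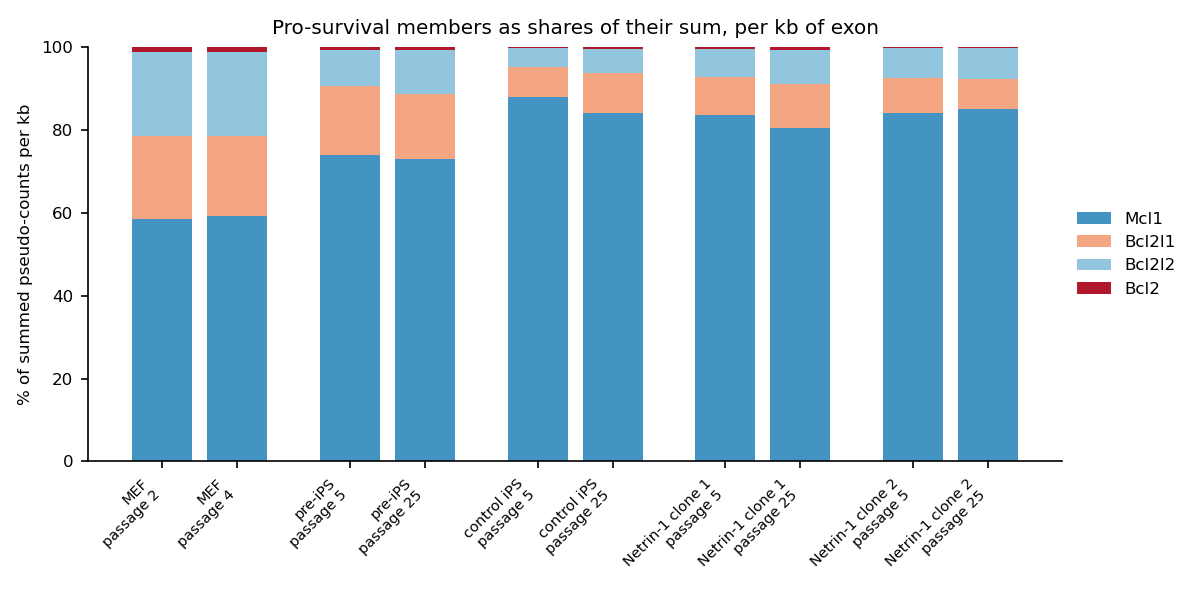
Each bar is 1 library, and the colours give the share (%) of Bcl2, Bcl2l1, Bcl2l2 and Mcl1 in their summed pseudo-counts per kb of merged exons. Mcl1 takes 80.3% to 87.8% of the sum in the iPS lines, 73.0% to 73.9% in pre-iPS cells and 58.5% to 59.1% in MEF.

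MEF were compared with the mean of the 3 iPS lines to ask how the family differs between the cells of origin and the reprogrammed cells. Bcl2 and Bcl2l2 were higher in MEF and Mcl1 was lower, each by 2.03-fold or more, while the effector Bax differed by less than the spread between libraries. In all, 3 of the 10 members were called against 48.2% of the genes tested. Of these, 2 were higher in MEF, against 21.6% of all genes, and 1 was lower, against 26.6%. By adjusted p alone 6 of 10 passed the test, against 79.3%, and the libraries of the same 6 did not overlap, against 80.0%. The median absolute log2 difference was 0.47 over the members and 0.96 over all genes tested. Both shares and the median were thus below those of all genes with the scaling as deposited, a description that was not tested.

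Of the pro-survival members, Bcl2, the founder of the family, was at 455 and 485 pseudo-counts in MEF (passages 2 and 4). It was at 173 and 251 in the control iPS line, 212 and 289 in clone 1 and 146 and 130 in clone 2 (passages 5 and 25 in that order here and below). Both MEF libraries were above all iPS libraries, and the log2 difference was 1.28 ± 0.18 (SE, limma adjusted p = 0.000184), a fold of 2.43. Bcl2l2, a pro-survival gene with roles in the testis and in neurons, was at 3731 and 3800 in MEF and between 1457 and 1913, with a median of 1779, in the iPS libraries. The groups lay far apart, with a log2 difference of 1.13 ± 0.07 (adjusted p = 9.97e-07). Bcl2l1, the gene of Bcl-xL, was at 3806 and 3699 in MEF and between 1883 and 2645, with a median of 2454, in the iPS libraries. It also passed the test without overlap, at a smaller log2 difference of 0.67 ± 0.10 (adjusted p = 0.000295). Mcl1, which encodes a short-lived pro-survival protein, went the other way. It was at 8277 and 8466 in MEF, at 23474 and 16390 in the control iPS line, at 17772 and 12866 in clone 1 and at 16640 and 16291 in clone 2. Both MEF libraries were below all 6 iPS libraries, with a log2 difference of -1.02 ± 0.15 (adjusted p = 0.00027), or 2.03-fold lower. Its call sits at the threshold of 1, since without the passage 5 library of the control line or of clone 1 the log2 difference was -0.93 or -0.94.

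The effectors had smaller differences. Bax, which moves from the cytosol to mitochondria when activated, was at 7976 and 8078 in MEF and between 7477 and 8763, with a median of 8103, in the iPS libraries. The MEF values lay inside the iPS range, and the log2 difference was -0.0066 with a 95% interval of -0.18 to 0.17. Bak1, its partner that resides in the mitochondrial membrane, was at 5265 and 5142 in MEF and between 3301 and 4391, with a median of 4168, in the iPS libraries. It passed the test at a log2 difference of 0.38 ± 0.12 (adjusted p = 0.0159), but not without the passage 2 library of MEF (adjusted p = 0.0944) or the passage 4 library (adjusted p = 0.0722).

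Of the BH3-only genes, only Pmaip1 passed the test. Pmaip1, the gene of the Mcl1-binding protein Noxa, was at 962 and 985 in MEF and between 1335 and 1579, with a median of 1445, in the iPS libraries. It was lower in MEF without overlap, by a log2 difference of -0.57 ± 0.08 (adjusted p = 0.000222). Bcl2l11, the gene of Bim, was at 2366 and 2378 in MEF, inside the iPS range of 1764 to 3284, and its log2 difference of 0.057 had a wide interval of -0.41 to 0.52. Bid, whose protein is cut by caspase-8 and links death receptors to mitochondria, had a log2 difference of -0.13 (95% interval -0.31 to 0.057). Bbc3, a target gene of p53, had one of -0.14 (95% interval -0.38 to 0.096). For the 6 members that passed, an exact two-sided permutation test of 2 against 6 libraries gave its smallest possible p of 0.0357. Scaling all libraries to Gapdh, Actb, Hprt and Tbp raised the median difference of all genes from -0.087 to 0.30 on the log2 scale, and the members moved with it. Bcl2, Bcl2l1 and Bcl2l2 were then called higher (1.67, 1.06 and 1.52), Mcl1 was lower but no longer called (-0.63), Pmaip1 no longer passed (-0.18, adjusted p = 0.0693) and Bax came out higher (0.38, adjusted p = 0.00149). Quantile normalization put Bax lower (-0.34, adjusted p = 0.00156), so no direction can be given for Bax. It also took Bcl2l2 under the threshold of a call (0.88), left Bak1 at 0.097 (adjusted p = 0.441) and put Bid and Bbc3 lower (-0.34, adjusted p = 0.00277, and -0.29, adjusted p = 0.0219). Bid passed as lower without the passage 25 library of clone 2 as well (-0.17, adjusted p = 0.0276) but as higher with housekeeping scaling (0.26, adjusted p = 0.0152), so no direction can be given for Bid either. By adjusted p alone 7 of 10 members passed with housekeeping scaling, against 13812 of 17075 genes, and 8 of 10 with quantile normalization, against 13455 of 17075. With quantile normalization the share of members that passed was thus not below that of all genes.

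**Figure D2:**
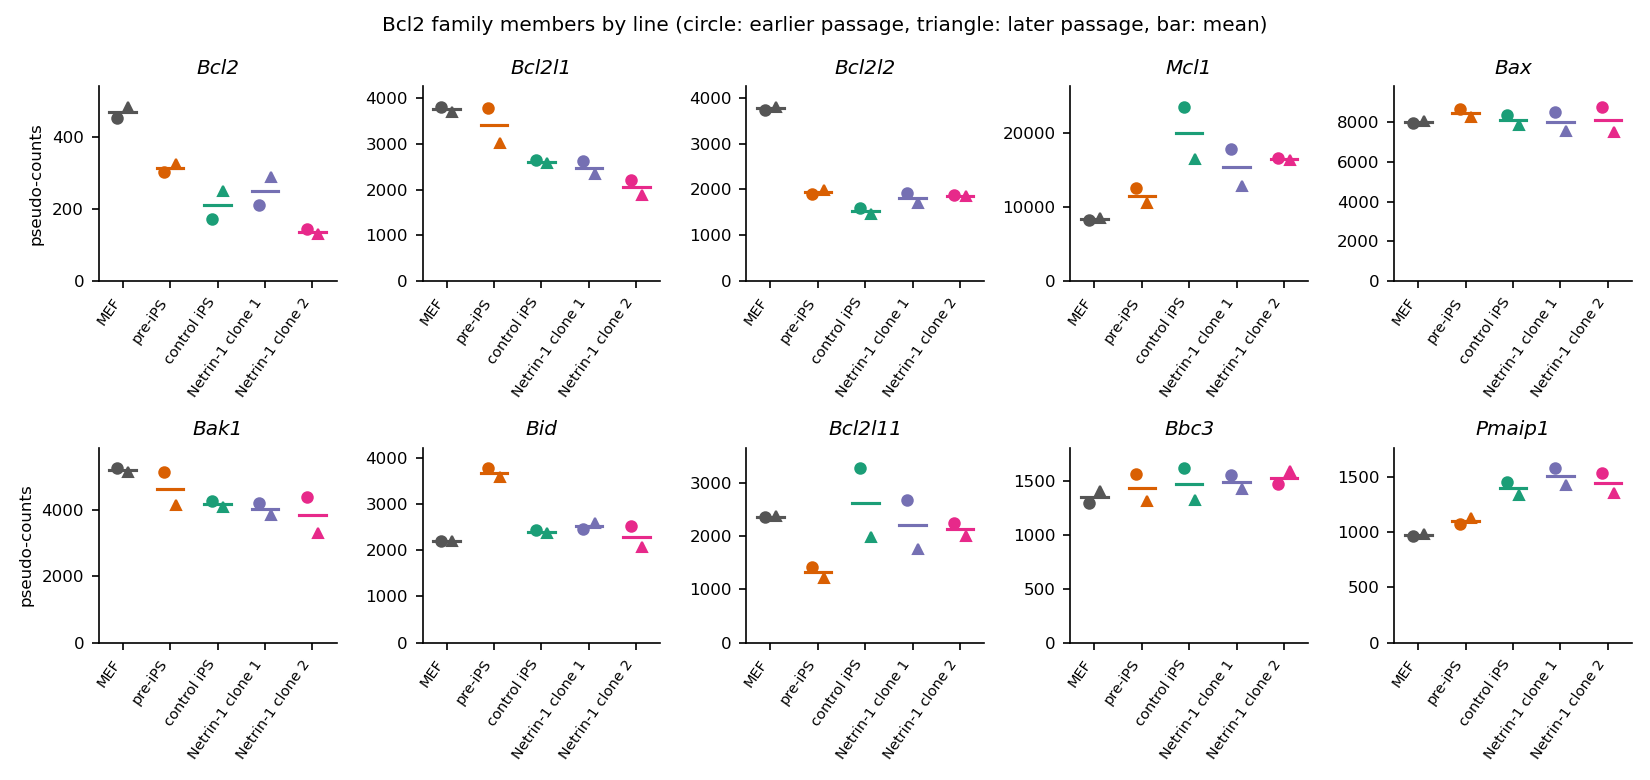
Each panel is 1 member, with pseudo-counts from 0 on the vertical axis, a circle for the earlier and a triangle for the later passage of each line, and a bar at their mean. Bcl2 and Bcl2l2 sit highest in MEF, Mcl1 is lowest in MEF at 8277 and 8466, Bid is highest in pre-iPS cells at 3767 and 3582, and Bax lies between 7477 and 8763 in all 10 libraries.

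The pre-iPS line was compared with the same 3 iPS lines to ask how partly reprogrammed cells differ from fully reprogrammed ones. The pre-iPS line had more Bid, Bcl2l1 and Bcl2 and less Bcl2l11, Mcl1 and Pmaip1. All 6 differences were under 2-fold, so 0 of 10 members were called, against 16.3% of the genes tested, while 6 of 10 passed the test, against 39.6%. The libraries of the lines did not overlap for these same 6 members, against 41.8% of all genes. The median absolute log2 difference was 0.46 over the members and 0.32 over all genes.

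Bid showed the clearest difference. It was at 3767 and 3582 in pre-iPS cells, at 2430 and 2365 in the control line, at 2460 and 2578 in clone 1 and at 2512 and 2074 in clone 2, and at 2205 and 2190 in MEF. The pre-iPS libraries were thus above all 8 others. The log2 difference from the iPS lines was 0.62 ± 0.08 (adjusted p = 0.000562), and from MEF it was 0.74 ± 0.10 (adjusted p = 0.000151), or 0.32 (adjusted p = 0.0168) with housekeeping scaling. Bcl2l11 was the reverse. It was at 1431 and 1223 in pre-iPS cells, at 3284 and 1986 in the control line, at 2679 and 1764 in clone 1 and at 2256 and 2018 in clone 2. The pre-iPS libraries were below all 8 others. The log2 difference was -0.78 ± 0.20 from the iPS lines (adjusted p = 0.0157) and -0.84 ± 0.25 from MEF (adjusted p = 0.0143). Within the BH3-only group the 2 genes therefore differed from the iPS lines in opposite directions, with Pmaip1 lower as well (1074 and 1127 in pre-iPS cells, log2 difference -0.39 ± 0.08, adjusted p = 0.00649) and Bbc3 inside the iPS range (1566 and 1315, log2 difference -0.059, 95% interval -0.30 to 0.18).

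Among the pro-survival genes, Bcl2l1 was at 3792 and 3023 in pre-iPS cells, above all iPS libraries (log2 difference 0.52 ± 0.10, adjusted p = 0.00459). Bcl2 was at 304 and 325, also above all iPS libraries (0.71 ± 0.18, adjusted p = 0.0158). Mcl1 was at 12483 and 10553, just below the lowest iPS library at 12866 (-0.56 ± 0.15, adjusted p = 0.0198). Bcl2l2 was at 1906 and 1985 and overlapped the iPS libraries (0.17 ± 0.07, adjusted p = 0.083). Bax and Bak1 had log2 differences of 0.069 (95% interval -0.11 to 0.25) and 0.21 (95% interval -0.062 to 0.47). With only 2 pre-iPS libraries several of these results rested on both. Without the passage 5 library the adjusted p was 0.071 for Bcl2, 0.0542 for Bcl2l1, 0.0546 for Bcl2l11 and 0.058 for Pmaip1. Without the passage 25 library it was 0.0953 for Bcl2, 0.149 for Mcl1 and 0.112 for Bcl2l11. Bid passed the test in every one of these fits. The exact permutation test gave its smallest possible p of 0.0357 for 5 of the 6 members and 0.107 for Bcl2.

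Set directly against MEF, the pre-iPS line had 0 of 10 members called, against 43.2% of all genes, and 4 of 10 that passed the test, against 70.6%. Housekeeping scaling moved the median of all genes from 0.058 to -0.34. With it 8 of 10 members passed, 7 of them lower in pre-iPS cells, against 12390 of 17075 genes, 8070 of them lower. With quantile normalization 5 of 10 passed, against 11734 of 17075 genes. Of the 4 that passed with the scaling as deposited, Bid was higher and Bcl2l2 (log2 difference -0.95 ± 0.09, adjusted p = 1.53e-05), Bcl2l11 and Bcl2 (-0.58 ± 0.22, adjusted p = 0.0454) were lower. Mcl1 was higher in both pre-iPS libraries at a log2 difference of 0.46 ± 0.19 (adjusted p = 0.0574), which passed without either control library (0.0274 and 0.0275), without either clone 1 library (0.0338 and 0.0342) and with only the lines compared (0.0174). It was 0.039 (adjusted p = 0.861) with housekeeping scaling and 0.83 (adjusted p = 0.00275) with quantile normalization. Bcl2 did not pass without a MEF, pre-iPS or clone 2 library (adjusted p of 0.0538 to 0.169). Bcl2l11 did not pass without the passage 25 library of pre-iPS cells (0.0781) or a MEF library (0.0581 and 0.0599). The 3 comparisons of MEF, pre-iPS and iPS libraries share their libraries, so their values are given side by side only. Along MEF, pre-iPS and iPS lines the mean level of Bcl2 was 470, 315 and 200 pseudo-counts, that of Bcl2l1 was 3753, 3407 and 2380, and that of Mcl1 was 8372, 11518 and 17239. For these 3 genes the pre-iPS mean lay between the other two, but for Bcl2l1 the pre-iPS and MEF libraries overlapped (log2 difference -0.15, adjusted p = 0.316) and the sign turned with quantile normalization (0.0517) and without the passage 25 library of pre-iPS cells (0.0152), and for Mcl1 the difference from MEF did not pass. By contrast, the pre-iPS mean lay outside both for Bid (2198, 3675 and 2403) and for Bcl2l11 (2372, 1327 and 2331).

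**Figure D3:**
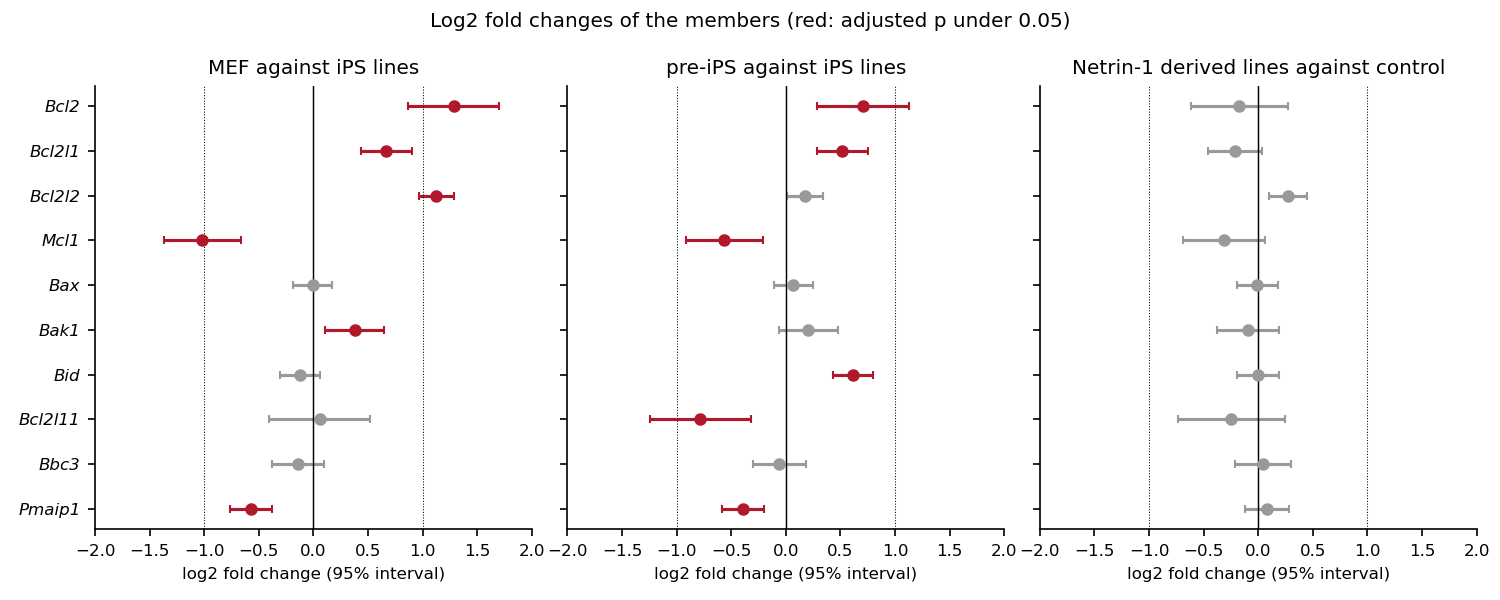
Points are log2 differences of the 10 members in 3 comparisons and bars are 95% intervals from limma, with red for an adjusted p under 0.05 and dotted lines at -1 and 1. Of the members, 6 are red in each of the comparisons of MEF and of pre-iPS with the iPS lines, and 0 are red for the Netrin-1 derived lines against control.

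The Netrin-1 derived clones were compared with the control iPS line to ask whether established lines made with added Netrin-1 differ in the family. No difference was detected in any member. In limma 0 of 10 were called, against 2.11% of the genes tested, and 0 of 10 passed the test, against 4.08%. Over all genes tested, 3066 had an unadjusted p under 0.05 in limma, and the count test of edgeR likewise called 0 members. The log2 differences ran from -0.31 for Mcl1 (95% interval -0.69 to 0.060, and -0.0549 without the passage 5 or -0.57 without the passage 25 library of the control line) to 0.27 for Bcl2l2 (95% interval 0.098 to 0.44). Bcl2l2 was the only member whose libraries did not overlap, against 21.3% of all genes, at 1913, 1704, 1875 and 1853 in the clones and 1589 and 1457 in the control line. It had the lowest adjusted p, 0.0963 in limma, and an exact permutation p of 0.0667, the smallest that 4 against 2 libraries allow. Of the effectors, Bax had a log2 difference of -0.0098 (95% interval -0.20 to 0.18) and Bak1 one of -0.097 (95% interval -0.38 to 0.19). For the BH3-only genes the differences were 0.00012 for Bid, -0.25 for Bcl2l11, 0.041 for Bbc3 and 0.079 for Pmaip1. The widest interval was that of Bcl2l11 (-0.74 to 0.25).

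The clones were also compared with each other, to see how far lines of the same condition lie apart. Bcl2 was at 212 and 289 in clone 1 and 146 and 130 in clone 2, with the control line between them at 173 and 251. The log2 difference of clone 2 from clone 1 was -0.84 ± 0.22, with an adjusted p of 0.119 in limma. Bcl2l1 was likewise lower in both libraries of clone 2 (2216 and 1883) than in those of clone 1 (2627 and 2330), at a log2 difference of -0.28 ± 0.13 (adjusted p = 0.319). Between the clones 0 of 10 members were called, against 0.966% of all genes. Each clone alone against the control line also gave 0 of 10, against 1.41% for clone 1 and 2.42% for clone 2. With passage as a block the adjusted p for Bcl2 was 0.0752. The naive pluripotency markers also differed between the clones. Of 9 markers 4 were called higher in clone 2 than in clone 1 (median log2 difference 1.05), and their summed level was 129% of the iPS mean in clone 2 and 68.5% in clone 1. Their part in the differences of Bcl2 and Bcl2l1 was not tested.

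Passage 25 was compared with passage 5 within the 4 reprogrammed lines, with the line as a block. Each line gave 1 library per passage, so passage cannot be told apart from anything else that the libraries of a passage shared. Bcl2l11 was the only member that passed the test. It fell from 3284 to 1986 in the control line, from 2679 to 1764 in clone 1, from 2256 to 2018 in clone 2 and from 1431 to 1223 in pre-iPS cells, a mean log2 difference of -0.43 (adjusted p = 0.0406). The adjusted p was 0.0616 after quantile normalization, and without the control line's libraries it was 0.0881 and 0.0874, without those of clone 1 it was 0.199 and without those of pre-iPS cells 0.0897 and 0.0894. In all, 0 of 10 members were called, against 1.69% of all genes, and 1 of 10 passed the test, against 10.9%. Mcl1 was lower at passage 25 in 4 of 4 lines as well, by a mean of -0.31 (adjusted p = 0.0549, and 0.032 without either library of clone 2), as were Bak1 (-0.23, adjusted p = 0.0742), Bcl2l1 (-0.19, adjusted p = 0.0901) and Bax (-0.14, adjusted p = 0.111). Thus 5 of 10 members were lower in 4 of 4 lines, against 20.9% of all genes. Bcl2 was the only member with a positive mean, 0.23 (adjusted p = 0.358), and was higher in 3 of 4 lines. A sign-flip permutation test over 4 lines cannot give a p under 0.125, which is what it gave for those 5 members.

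**Figure D4:**
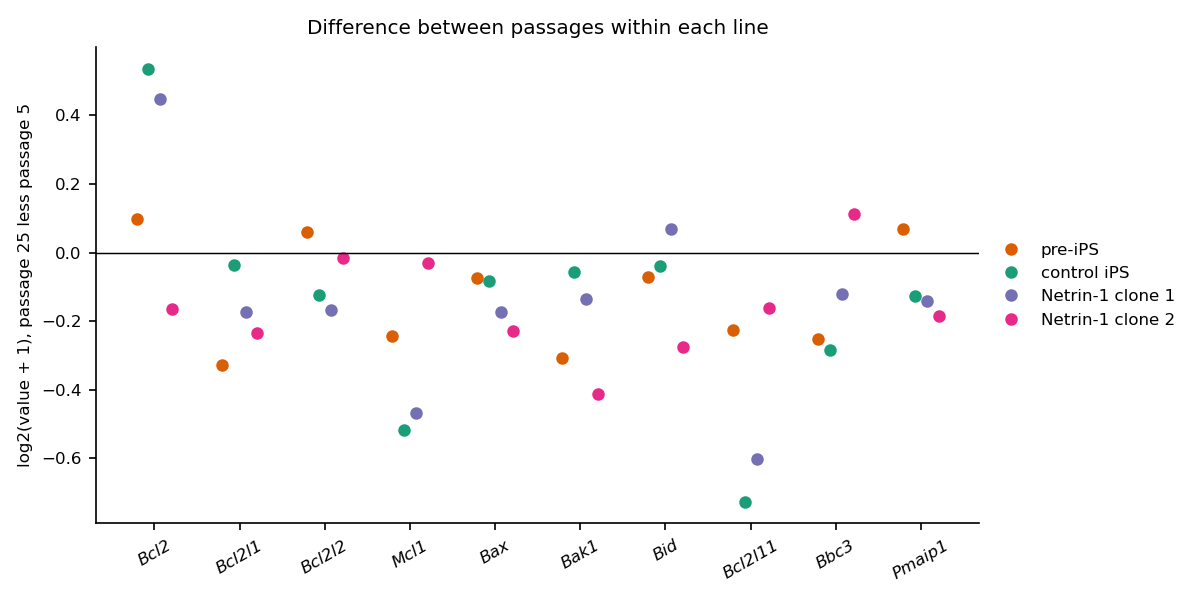
Each point is 1 line's difference between passage 25 and passage 5 on the log2(value + 1) scale for 1 member, with the horizontal line at no difference. All 4 lines lie below the line for Bcl2l1, Mcl1, Bax, Bak1 and Bcl2l11, and the lowest points are Bcl2l11 in the control line (-0.73) and in clone 1 (-0.60).

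Mcl1 and Bcl2l11, a pro-survival gene and a gene of its BH3-only binding partner, had the closest pattern of any 2 members over the reprogrammed cells. Pearson's r of their log2 values was 0.97 over the 8 pre-iPS and iPS libraries, and 0.42 over all 10, since MEF had the lowest Mcl1 and a Bcl2l11 level within the iPS range. Over all 10 libraries the closest pair was Bcl2l1 and Bak1 (r = 0.91, and 0.85 without MEF). The most opposed pair over 10 libraries was Bcl2 and Mcl1 (r = -0.86), and over the 8 libraries it was Bid and Pmaip1 (r = -0.79). Of the wider family, Bmf, another BH3-only gene, was the nearest to Mcl1, with an r of 0.95 over 10 and 0.98 over 8 libraries. The libraries of a line share a clone, so values over 10 libraries describe 5 lines rather than 10 independent samples. Those over 8 libraries describe only 4 lines.

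**Figure D5:**
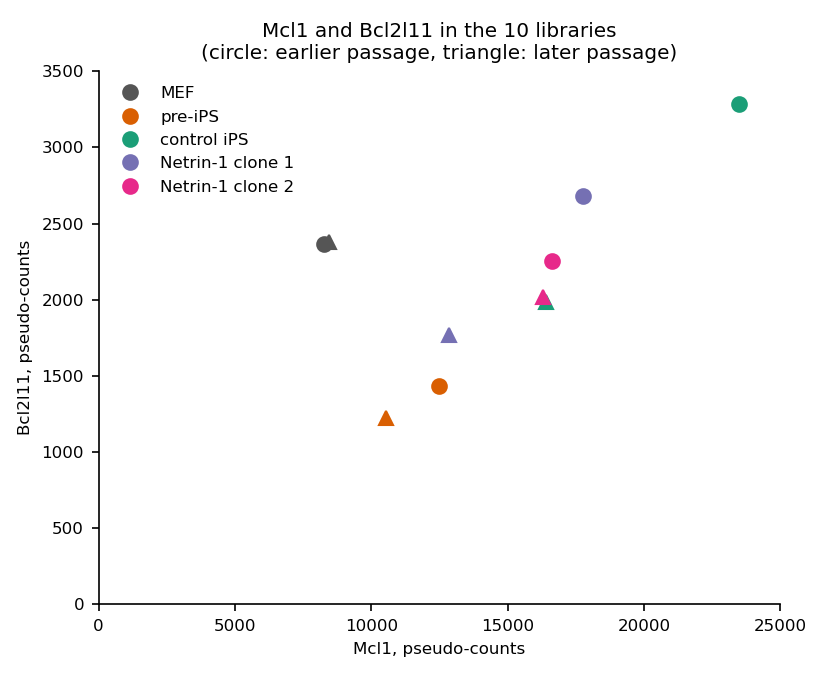
Each point is 1 library, with Mcl1 pseudo-counts on the horizontal and Bcl2l11 pseudo-counts on the vertical axis, a circle for the earlier and a triangle for the later passage. The 8 pre-iPS and iPS libraries run from 10553 and 1223 to 23474 and 3284 along a rising band, and the 2 MEF libraries lie apart at 8277 and 2366 and at 8466 and 2378.

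The wider family was taken from a list. Of 20 further family genes 17 were listed and 16 could be tested. In MEF 1 was called higher and 5 lower, against the 48.2% of all genes. The BH3-only gene Bik was at 2.5 and 5.2 in MEF and between 45.2 and 125.7 in the iPS libraries (log2 difference -4.08 ± 0.39, adjusted p = 1.44e-05), and the BH3-only gene Hrk was at 2.6 and 8.4 in MEF and between 32.9 and 94.98 in the iPS libraries (-3.03 ± 0.47, adjusted p = 0.00033). Bcl2l14 was at 2.3 and 1.1 in MEF and between 47.2 and 181.8 in the iPS libraries. Bik, Hrk and Bcl2l14 were under 10 in both MEF libraries and entered the test only through the other lines, where they are high. Their calls and adjusted p against MEF therefore carry no weight, and the count of 5 lower includes them. Bcl2l15 was lower in MEF (-1.35 ± 0.29, adjusted p = 0.00236), and Bnip2, which encodes a Bcl2-interacting protein, was higher (1.21 ± 0.07, adjusted p = 7.82e-07). In pre-iPS cells Bik, Hrk and Bcl2l14 were instead at 72.0 to 118.3, 28.6 to 53.8 and 61.4 to 99.98. These 3 and Bcl2l15 were called higher there than in MEF, against 43.2% of all genes called in either direction, with the same limit for these 3. Bcl2l10 was the other gene called lower in MEF and the only one called between pre-iPS and iPS lines, but it reached 10 only in the 2 libraries of clone 2, so it entered the test through a group where it is high and its calls carry no weight. It was listed at 1.0 and 0 in pre-iPS cells, at 0 in both MEF libraries and at 1.0 to 13.4 in the iPS libraries, and between pre-iPS and iPS lines it did not pass in the count test of edgeR (adjusted p = 0.0817). Bmf differed from the iPS lines by -0.96 in MEF (adjusted p = 0.00441) and by -0.84 in pre-iPS cells (adjusted p = 0.0212), and so passed the test in both.

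Downstream of the effectors, 0 of 14 genes of the mitochondrial pathway were called between MEF and iPS lines or between pre-iPS and iPS lines, against 48.2% and 16.3% of all genes. At an adjusted p under 0.05 alone, 3 were higher and 5 lower in MEF, together 8 of 14 against 79.3%, among them Cycs, the gene of cytochrome c (-0.82, adjusted p = 3.59e-05). Against the iPS lines, Htra2, the gene of a mitochondrial protease, was higher in pre-iPS cells (0.46, adjusted p = 0.00247). Upstream of Bid, all 8 genes of the death receptor arm had higher means in MEF. Of them 5 were called, all higher, against 48.2% of all genes called in either direction and 21.6% called higher. The test was passed by 7, all higher, against 79.3% of all genes in either direction and 6385 of 17075 as higher. The median log2 difference was 1.21 over the list and -0.087 over all genes. The death receptors Tnfrsf1a (12742 and 12514 in MEF, 1519 to 2082 in the iPS libraries, log2 difference 2.79 ± 0.11, adjusted p = 7.25e-08) and Fas (1703 and 1713 against 210 to 360, 2.64 ± 0.14, adjusted p = 3.17e-07) had the largest differences. In pre-iPS cells 6 of these 8 genes passed the test in the same direction against the iPS lines, with log2 differences of 0.32 to 0.61. Of all genes 39.6% passed in either direction and 3199 of 17075 as higher. Casp8, whose product cuts Bid, was among the 6 (0.32, adjusted p = 0.0308).

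Of 19 tested genes of p53 and its targets, 1 was called higher and 4 lower in MEF, a smaller share than the 48.2% of all genes. Perp, a p53 target in cell adhesion and death, was at 714 and 832 in MEF and between 5381 and 10654 in the iPS libraries (-3.29 ± 0.12, adjusted p = 6.15e-08). Plk3 was also lower in MEF (-1.26 ± 0.09, adjusted p = 2.26e-06) and Phlda3 higher (1.23 ± 0.15, adjusted p = 6.83e-05). Between pre-iPS and iPS lines only Trp53i11 was called, against 16.3% of all genes. It was lower in pre-iPS cells (179 and 226 against 937 to 1809, log2 difference -2.59 ± 0.17, adjusted p = 1.52e-05). Of 25 other regulators of the family, 5 were called higher and 7 lower in MEF, a share near the 48.2% of all genes and so no result about the list. Ddit3, the stress factor Chop (3.24 ± 0.20, adjusted p = 1e-06), and Stat3 (1.74 ± 0.09, adjusted p = 2.74e-07) were higher. Trp73 (2.3 and 1.1 in MEF, 259 to 586 in the iPS libraries) and Pim2, a survival kinase (-4.58 ± 0.31, adjusted p = 1.46e-06), were lower. Trp73 was under 10 in both MEF libraries and entered the test only through other lines, where it is high. Its call therefore carries no weight, and the count of 7 lower includes it. In pre-iPS cells 3 regulators were called higher than in the iPS lines and 2 lower, a share near the 16.3% of all genes and so no result about the list. Foxo4, a forkhead factor, was higher (16995 and 17132 against 4291 to 7087, log2 difference 1.57 ± 0.09, adjusted p = 9.83e-06), as was Trp63 (1.35 ± 0.27, adjusted p = 0.0046). The third was Myc (1.25, adjusted p = 3.55e-05), whose reads can also come from the viral c-Myc. Mycn (-3.00 ± 0.21, adjusted p = 2.12e-05) and Pim1 (-1.64 ± 0.16, adjusted p = 0.000122) were lower. In the Netrin-1 derived lines 0 of the genes in these 5 further lists were called against control, where 2.11% of all genes were. The p53 targets Perp and Plk3, singled out after their values were seen, did pass the test, which 4.08% of all genes passed. Perp was at 10654, 9612, 8902 and 6421 in the clones and 5800 and 5381 in the control line (log2 difference 0.65 ± 0.13, adjusted p = 0.0331), so all 4 clone libraries were above the control. Plk3 was at 1670, 1431, 1650 and 1844 in the clones and 2424 and 2283 in the control line (-0.52 ± 0.10, adjusted p = 0.0247), so all 4 were below it. The libraries did not overlap in this comparison for 21.3% of all genes either.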

How the data were processed

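Poly(A) RNA of 10 libraries from 5 lines was sequenced as single reads. The deposited signal values are pseudo-counts, which the authors made with edgeR from read counts per gene so that libraries of unequal size can be compared. The labels name CASAVA 1.8.2, FastQC, TopHat2 2.0.8b, HTSeq 0.5.3p9, edgeR and mm10 without roles. The annotation and strand setting of the counting are not given in the sources used here.

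Members and gene lists were chosen with earlier results of these data known. Named genes are the 10 members, every called gene of the wider family and, in each other list, the 2 called genes with the largest difference in each direction between MEF or pre-iPS and iPS lines. Other list genes named were chosen after their values were seen. Genes at 10 or more in at least 2 libraries (17075 of 18901) were fitted with limma 3.58.1 (R 4.3.3, empirical Bayes with trend) on log2(value + 1), with 1 mean per line over all libraries and Benjamini-Hochberg adjustment over all genes tested. Passage was tested without MEF, with line as a block. Single members were also tested by exact two-sided permutation. Same-numbered passages deviated together in all 6 pairs of lines (r of 0.235 to 0.504), so a fit with passage as a block was made. In the pre-iPS and iPS libraries low values were whole multiples of 1 read for 100% of values (tolerance 0.1 read), and edgeR 4.0.16 was run on those reads, an alternative chosen after seeing the data. MEF values were not whole multiples. Other alternatives were pseudocounts, filters, scalings, the lines fitted and leaving out each library. Scripts were tested on simulated data. Exon lengths and positions are from GENCODE M21 (GRCm38), promoters from RefSeq.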

Additional observations from a re-analysis of the deposited data

How the results depend on the processing

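Of 1174 values of members under an alternative, 1082 kept their direction and side of the threshold, 28 lost the test, 17 gained it and 47 changed sign. For each clone alone against the control line, these values cover only Bcl2, Bcl2l1 and Bcl2l2. Sign changes of the other members there are not counted. With the main settings, 6 of 10 members passed the test between MEF and iPS lines, against 79.3% of all genes. Between pre-iPS and iPS lines 6 passed, against 39.6%. Between pre-iPS and MEF 4 passed, against 70.6%, and between passages 1 passed, against 10.9%. Leaving out each library gave 2 to 3 called for MEF against iPS lines and 0 to 0 for each other comparison. Housekeeping scaling gave 2 called between pre-iPS and MEF (Bcl2l2 and Bcl2l11), against 7892 of 17075 genes. With the replicate block (passage), 0 members were called in each comparison it could be made for, and over all genes the count rose from 360 to 564 for the Netrin-1 derived lines, from 240 to 490 for clone 1, from 413 to 711 for clone 2 and from 165 to 327 between the clones. Per kb of the longest transcript, iPS levels were 927 for Bcl2l1, 454 for Bcl2l2, 7343 for Bax, 995 for Bid, 463 for Bcl2l11 and 826 for Bbc3. The order of neighbouring genes, and whether they lay within their spread, therefore depends on the length used. Over all genes, limma on only the lines compared called 134 for the Netrin-1 derived lines, 0 for clone 1 (2525 at an unadjusted p under 0.05, and 120 by edgeR), 17 for clone 2 and 6 between the clones, where edgeR called 56 and a mean of at least 50 left 106. That filter left 1758 of 2781 between pre-iPS and iPS lines. Calls higher and lower went from 3690 and 4547 to 5075 and 3648 in MEF against iPS lines and from 3820 and 3563 to 2887 and 5005 in pre-iPS against MEF with housekeeping scaling, and from 804 and 1977 to 1354 and 1494 in pre-iPS against iPS lines with quantile normalization. The cause of these changes was not tested.

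The 47 sign changes were in members that did not pass the test with the scaling as deposited, but 4 of the changed values passed, all with housekeeping scaling: Bax (adjusted p = 0.00149) and Bid (0.0152) in MEF against iPS lines and Bax (0.0101) and Bbc3 (0.0388) in pre-iPS against MEF. With housekeeping scaling they were, for MEF against iPS lines, Bax at 0.38, Bid at 0.26 and Bbc3 at 0.24, for pre-iPS against MEF, Bax at -0.34, Bbc3 at -0.33 and Pmaip1 at -0.24, and for clone 2 against clone 1, Bcl2l2 at -0.0107, Bax at -0.0393 and Bbc3 at -0.0180. With quantile normalization they were Bcl2l11 at -0.16 (MEF against iPS lines), Bcl2l1 at 0.0517 and Bak1 at 0.0507 (pre-iPS against MEF), Bid at -0.0132 (Netrin-1 derived lines) and Bax at -0.0069 (between clones). With edgeR, Bax was at 0.0043 in the Netrin-1 derived lines. Leaving out each library gave log2 differences that crossed 0 for the following members. For MEF against iPS lines the ranges were -0.0447 to 0.0316 for Bax and -0.0636 to 0.18 for Bcl2l11. For pre-iPS cells they were -0.19 to 0.0663 for Bbc3 against iPS lines, and -0.31 to 0.0152 for Bcl2l1 and -0.0412 to 0.21 for Bbc3 against MEF. For the Netrin-1 derived lines they were -0.44 to 0.0935 for Bcl2, -0.0671 to 0.0474 for Bax, -0.20 to 0.0062 for Bak1, -0.0691 to 0.0693 for Bid, -0.61 to 0.1172 for Bcl2l11 and -0.1013 to 0.18 for Bbc3. For each clone alone against the control line only Bcl2, Bcl2l1 and Bcl2l2 were followed. In clone 1 the ranges that crossed 0 were -0.0201 to 0.52 for Bcl2 and -0.16 to 0.0089 for Bcl2l1. Between the clones they were -0.0369 to 0.13 for Bcl2l2, -0.1102 to 0.36 for Mcl1, -0.0966 to 0.13 for Bax, -0.29 to 0.1222 for Bak1, -0.33 to 0.2741 for Bcl2l11, -0.0218 to 0.10 for Bbc3 and -0.15 to 0.0348 for Pmaip1.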

Other observations

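Among the wider family, some genes differed more between the passages than any of the 10 members did. Bnip3, a mitophagy gene related to the BH3-only group, was at 8554, 7834, 7195 and 5749 at passage 5 of the control line, clone 1, clone 2 and pre-iPS cells and at 2833, 3151, 3498 and 3010 at passage 25. All 4 lines were lower at passage 25, by a mean log2 difference of -1.22 ± 0.10 (SE, limma adjusted p = 0.00187), and MEF were at 2915 and 3036. Bik (-0.76 ± 0.16, adjusted p = 0.0272), Bcl2l14 (-0.90 ± 0.19, adjusted p = 0.0292) and Bmf (-0.48 ± 0.12, adjusted p = 0.0461) also passed the test in limma, all lower at passage 25. The survival kinase gene Pim2 was lower as well (-0.73 ± 0.09, adjusted p = 0.00649).

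Usp9x, the gene of a deubiquitinase that stabilises Mcl1 protein, was called between the 2 Netrin-1 derived clones, as were 4 naive pluripotency markers, and was singled out after its values were seen. It was at 26478 and 32616 in clone 2 and at 12757 and 12706 in clone 1, a log2 difference of 1.21 ± 0.10 (limma adjusted p = 0.0027). The control line was at 15512 and 14404, pre-iPS cells at 13064 and 14320 and MEF at 14762 and 15066, so clone 2 stood above all other libraries. Mcl1 RNA differed between the same clones by 0.12 on the log2 scale (95% interval -0.31 to 0.56).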
